A study of Homo sapiens with 12 samples.

Results

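The genes described here are 41 genes of mitosis and the G2/M transition, taken by name from a list and matched to the gene symbols of the deposited count table. All 41 matched 1 of its 58735 genes, and all 41 passed the filter on low counts that left 17290 genes for testing. The RNA came from U2OS, an established line from a human osteosarcoma, with 3 libraries for each of 4 treatments that lasted 24 h. The groups were the solvent DMSO, TH10785 at 10 µM, PNKP1i at 10 µM, and both compounds at 10 µM each, called the combination here. TH10785 activates OGG1, a DNA glycosylase of base excision repair. The labels write TH10785 where the series record writes TH10587, and PNKP1i is named by its label only. All groups were unmodified cells of 1 line, and separate cultures are not named for the replicates, so a p-value here reflects sample-to-sample spread that may be technical.

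Entry into mitosis is driven by the kinase CDK1 bound to cyclin A or cyclin B and switched on by CDC25 phosphatases, with Polo-like and Aurora kinases acting beside it. Motors and spindle proteins then build the spindle, the spindle checkpoint holds CDC20 and the anaphase-promoting complex until chromosomes are attached, and cytokinesis divides the cell. Transcripts of these genes accumulate late in the cell cycle under the transcription factors FOXM1 and B-MYB and the MuvB complex, which act through CHR elements and, with NF-Y, through CCAAT boxes in the promoters.

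Promoter sequence from RefSeq (GRCh38.p14) was given for 34 of the 41 genes, as 44 windows that run from 250 bases before to 50 after an annotated start. No window was given for AURKA, BIRC5, FOXM1, RACGAP1, TPX2, TTK and UBE2C. A CHR-like word, which is TTTGAA, its variant spelled TTCGAA or the further variant TTTAAA, was sought on either strand and found in 36 of the 44 windows (81.8%), against 25.1% of the 35116 windows of all genes. A CCAAT box (CCAAT, on either strand) was likewise found in 36 windows (81.8%), against 34.6% of all windows. Both kinds of word occurred in 31 windows (70.5%), against 9.7% of all. The 4 stretches below come from the genes with the largest falls and from the pair that rose when both compounds were given, and the capitals mark these words. Only bases before the RefSeq start are shown. The GENCODE 29 annotation, used for the gene positions given below, begins PLK1 and KIF20A earlier, at 23677656 and 138178719. By that annotation their stretches lie within the gene, and the MAD2L1 stretch lies partly within it. Where the bases before the RefSeq start overlap annotated exons, as for KIF20A and MAD2L1, a stretch of 30 bases around 1 word is printed.
PLK1, chr16:23678639-23678821, plus strand: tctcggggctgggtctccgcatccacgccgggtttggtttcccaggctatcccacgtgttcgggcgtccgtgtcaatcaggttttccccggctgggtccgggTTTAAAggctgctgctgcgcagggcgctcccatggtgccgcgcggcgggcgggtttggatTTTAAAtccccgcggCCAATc
KIF20A, chr5:138179059-138179088, plus strand: cgcagcgcgtaaTTTAAAatattgtatctg
CDK1, chr10:60778081-60778330, plus strand: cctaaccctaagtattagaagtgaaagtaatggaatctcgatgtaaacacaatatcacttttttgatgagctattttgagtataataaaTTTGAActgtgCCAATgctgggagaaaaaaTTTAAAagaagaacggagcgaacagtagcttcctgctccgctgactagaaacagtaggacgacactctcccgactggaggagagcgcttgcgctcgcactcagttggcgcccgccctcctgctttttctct
MAD2L1, chr4:120067060-120067089, minus strand: gtggctactgaaATTGGaatcgtcatcttc
The PLK1 window held CHR-like words 148, 88 and 29 bases before the start, and the CDK1 stretch held them 161 and 131 bases before it. Counted by gene, a CHR-like word was found in 14 of the 15 genes with a window that fell with the combination, in both genes that rose and in 15 of the 17 that were not called. The CCAAT box gave the same 3 counts, 14, 2 and 15. A gene counted if any of its windows matched, bases after the start included. The only CHR-like word of MAD2L1 lay after the start. The shares of all genes above are by window, so no share by gene stands beside these counts. The words were present in nearly all of the genes whichever way their transcripts moved, and a match describes letters only.

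Total counts ran from 16225339 to 21546369 per library. Levels are CPM, counts scaled to a common library size after TMM normalization, given as mean ± SD over 3 libraries or in the order of replicates 1 to 3. The libraries differed in a trend with the GC content of transcripts that ran through all genes. Tested genes under 40% GC (2233 genes) had a median, on the log2 scale against the DMSO mean, of -0.65 in replicate 3 of TH10785 and of 0.67, 0.47 and 0.82 in the combination libraries. Replicate 3 of TH10785 also stood apart on the first 2 principal components, at -54.5 and -45.9. The 41 genes spanned 35.3% to 59.3% GC with a median of 43.9%, against 49.7% over all tested genes, and the comparisons were therefore also fitted with per-library offsets for GC content and transcript length. The part of this trend in any single difference was not tested.

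With both compounds, 21 of the 41 genes fell against DMSO and 2 rose, at an adjusted p under 0.05. Over all tested genes 19.7% fell and 21.3% rose in this comparison. Combination libraries lay wholly above DMSO in 5 of the 41 genes and wholly below in 20, against 28.4% and 25.2% of all tested genes. The median log2 fold change of the 41 genes was -0.32, against 0.04 over all tested genes. The falls took in PLK1, FOXM1, CDC20, cyclin B1, the Aurora kinases and the chromosomal passenger subunits, and the 2 rises were CDK1 and MAD2L1. In libraries of whole cultures, fewer cells in G2 and mitosis and less RNA per such cell cannot be told apart. The 41 genes together took 0.596% to 0.61% of all counts in the DMSO libraries, 0.512% to 0.577% with a single agent and 0.386% to 0.483% with both. This share is a sum of counts in which abundant genes weigh most. Gene by gene, 24 of the 41 had a negative sign with both compounds and 17 a positive one.

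**Figure D1:**
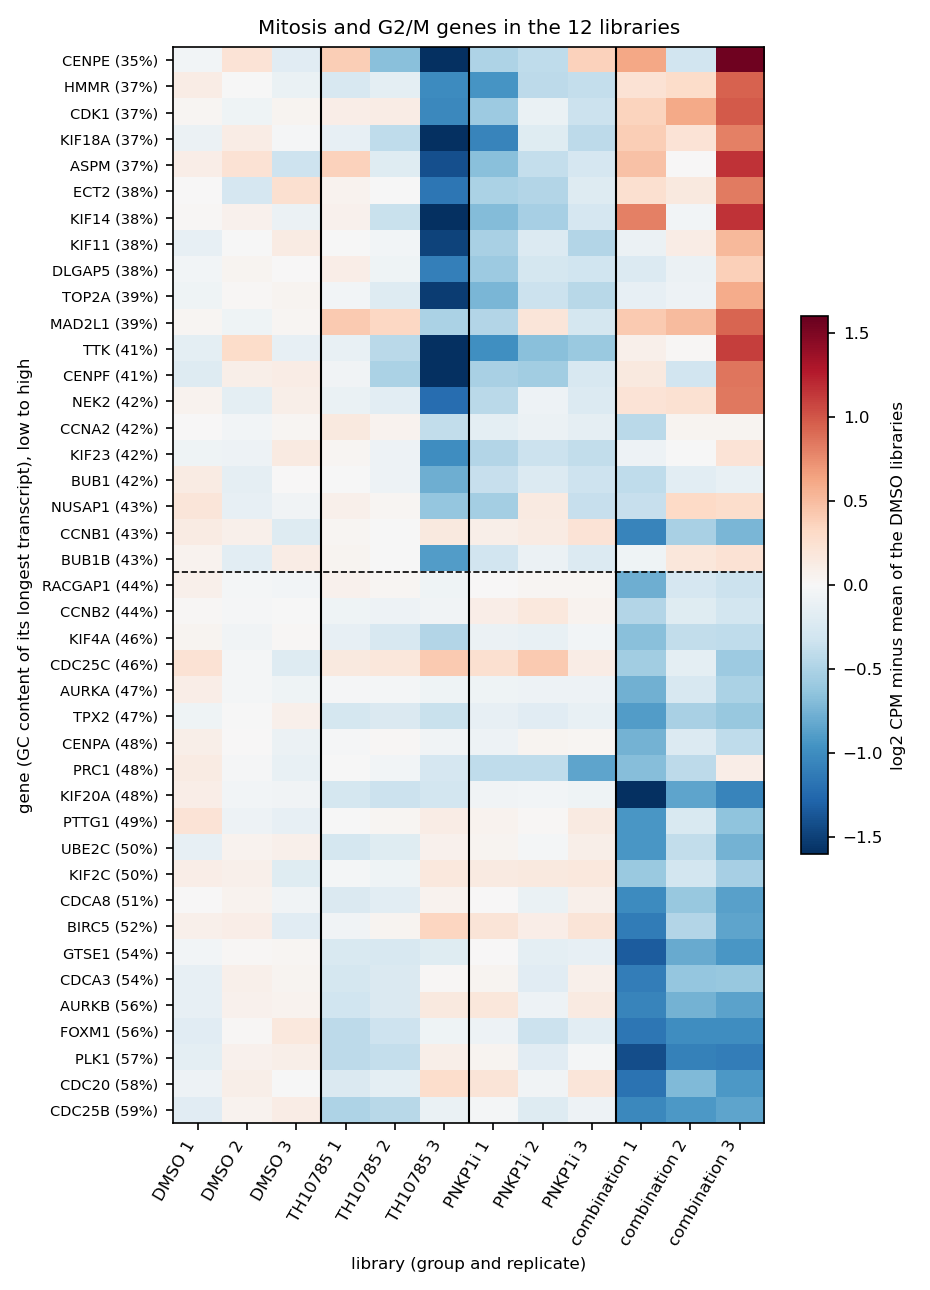
Rows are the 41 genes ordered by the GC content of their longest transcript (in brackets), columns are the 12 libraries, and the colour is log2 CPM minus the mean of the DMSO libraries, from blue (lower) to red (higher). The combination columns are blue for the genes of higher GC, below the dashed line, except for PRC1 in replicate 3 (0.11). Replicate 3 of TH10785 is blue for most of the genes above the line.

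Of the 8 genes of the CDK1 switch and its transcription, 6 fell and 1 rose with both compounds (median log2 -0.60). The shares of all tested genes, 19.7% that fell and 21.3% that rose, stand beside this count and those of the other roles below. FOXM1 (chromosome 12, 2857681 to 2877155), the transcription factor of late cell-cycle genes, measured 491, 565 and 625 CPM in DMSO, 416, 442 and 533 in TH10785, 526, 438 and 495 in PNKP1i, and 251, 279 and 281 in the combination. The combination libraries lay below all 9 others, and the fall against DMSO was -1.05 on the log2 scale (SE 0.13, adjusted p = 2.43e-05). CCNB1 (chromosome 5, 69167010 to 69178245), cyclin B1, measured 434, 421 and 346 CPM in DMSO, 409, 396 and 442 in TH10785, 426, 434 and 462 in PNKP1i, and 192, 279 and 239 in the combination. Again no combination library reached the lowest of the others, and the log2 fold change was -0.76 (SE 0.14, adjusted p = 0.000476). GTSE1, a microtubule-binding protein of G2, fell from 290 ± 8.3 to 144 ± 26 CPM (log2 -1.01, SE 0.13, adjusted p = 2.27e-05), with 246 ± 5.5 in TH10785 and 272 ± 17 in PNKP1i. CDC25B, a phosphatase that starts CDK1 activation, fell from 305 ± 33 to 160 ± 10 CPM (log2 -0.93, SE 0.13, adjusted p = 5.13e-05), with 241 ± 37 and 283 ± 17 in the single agents, in the same order. Its relative CDC25C fell less, from 24.1 ± 3.7 to 17.8 ± 3.2 CPM (log2 -0.43, SE 0.16, adjusted p = 0.0399), and its groups overlapped. CCNB2, cyclin B2, fell from 136 ± 1.9 to 109 ± 11 CPM (log2 -0.32, SE 0.10, adjusted p = 0.0205). The single agents stood at 28.6 ± 3 and 28.8 ± 3.1 CPM for CDC25C and at 129 ± 0.87 and 146 ± 5.6 for CCNB2.

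CDK1 (chromosome 10, 60778331 to 60794852), the kinase that these cyclins activate, moved the other way. It measured 46.5, 43.1 and 46.7 CPM in DMSO, 48.8, 49.3 and 22.2 in TH10785, 30.3, 42.3 and 35.7 in PNKP1i, and 58.1, 69.2 and 89.4 in the combination. Every combination library was above the other 9, with replicate 3 the highest, and the log2 fold change was 0.67 (SE 0.23, adjusted p = 0.0269). With GC and length offsets it was -0.05 (adjusted p = 0.824), and without replicate 3 of the combination it was 0.49 (adjusted p = 0.134). CCNA2, cyclin A2, was close to level at 115 ± 3.1, 112 ± 21, 105 ± 2.7 and 107 ± 19 CPM in DMSO, TH10785, PNKP1i and the combination (log2 -0.09, SE 0.14, adjusted p = 0.626, against DMSO). After offsets CCNA2 passed the test as lower, at -0.47 (adjusted p = 0.00259).

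**Figure D2:**
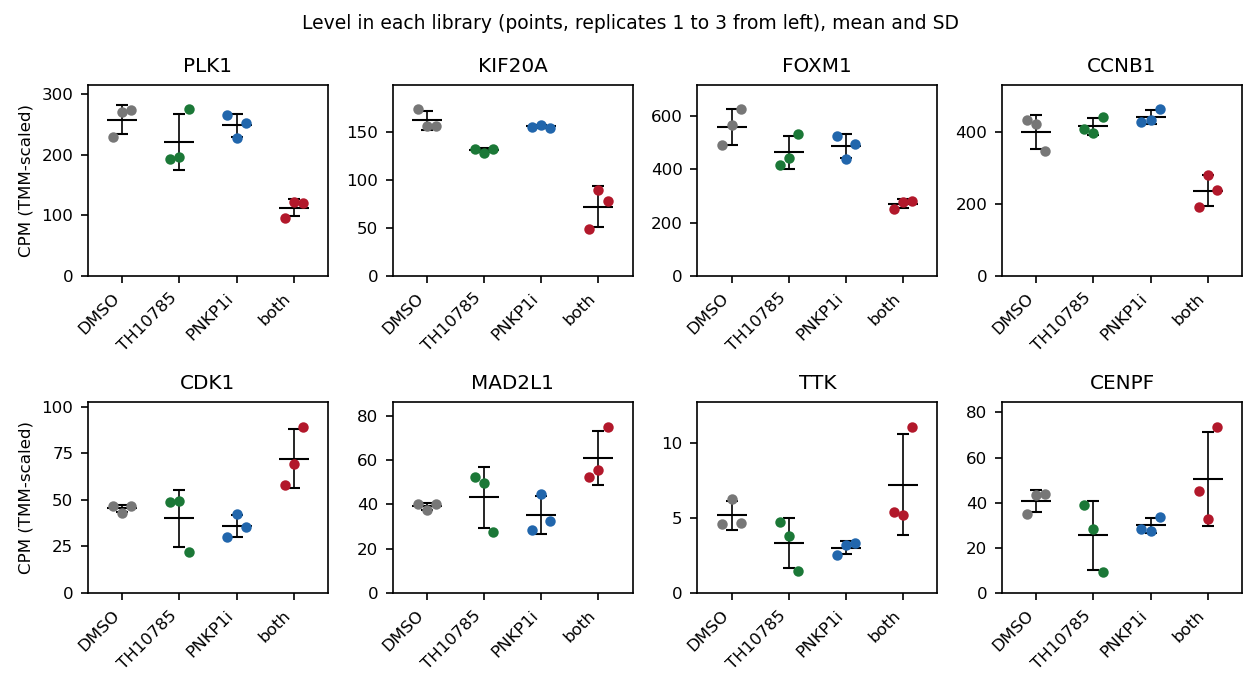
CPM of 8 of the genes in each library, with 1 panel per gene, 1 point per library (replicates 1 to 3 from left to right), and the mean and SD of each group as a dash and bars, on axes that start at 0. The combination points of PLK1, KIF20A, FOXM1 and CCNB1 lie below all the others, while those of CDK1 and MAD2L1 lie above the DMSO points and those of TTK and CENPF overlap them.

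Among the 5 other mitotic kinases, 3 fell and 0 rose (median log2 -0.50). PLK1 (chromosome 16, 23677656 to 23690367), the Polo-like kinase of centrosomes, kinetochores and the midzone, had the largest fall of the 41 genes. It measured 230, 271 and 274 CPM in DMSO, 193, 197 and 275 in TH10785, 266, 228 and 252 in PNKP1i, and 96.1, 122 and 120 in the combination. The highest combination library was below the lowest of the other 9, and the log2 fold change was -1.20 (SE 0.15, adjusted p = 1.92e-05). AURKB, the Aurora kinase of the chromosomal passenger complex, fell from 96.1 ± 7.4 to 52 ± 5.4 CPM (log2 -0.89, SE 0.14, adjusted p = 0.000133), with 88.5 ± 16 in TH10785 and 102 ± 9.9 in PNKP1i. AURKA, the Aurora kinase of spindle poles, stood at 183 ± 12, 179 ± 3.1 and 173 ± 0.92 CPM in the first 3 groups and fell to 130 ± 23 with both (log2 -0.50, SE 0.12, adjusted p = 0.00378). The other 2 kinases had higher means with both compounds without passing the test. NEK2, a kinase of centrosome separation, measured 23.4, 20.2 and 24 CPM in DMSO and 26.1, 26.6 and 40.3 with both (log2 0.46, SE 0.23, adjusted p = 0.123). These groups do not overlap, which held in this direction for 28.4% of all tested genes. TTK, the MPS1 kinase of the spindle checkpoint, measured 4.61, 6.29 and 4.66 CPM in DMSO and 5.42, 5.19 and 11.1 with both (log2 0.49, SE 0.33, adjusted p = 0.257), and only replicate 3 lay above the DMSO range. In the single agents NEK2 was at 16.8 ± 6.3 and 19.1 ± 2.3 CPM and TTK at 3.33 ± 1.7 and 3.02 ± 0.43.

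Of the 7 genes of the spindle checkpoint and the onset of anaphase, 4 fell and 1 rose (median log2 -0.59). The 4 that fell act at the anaphase-promoting complex or are its substrates. CDC20 (chromosome 1, 43358955 to 43363203), its activator, measured 681, 769 and 716 CPM in DMSO, 611, 644 and 874 in TH10785, 832, 695 and 824 in PNKP1i, and 318, 442 and 383 in the combination. All 3 combination libraries were below the lowest of the other 9, and the log2 fold change was -0.92 (SE 0.15, adjusted p = 0.000254). UBE2C, the ubiquitin-conjugating enzyme that works with the complex, fell from 238 ± 19 to 149 ± 29 CPM (log2 -0.68, SE 0.14, adjusted p = 0.00111), with 218 ± 28 and 244 ± 11 in TH10785 and PNKP1i. PTTG1, the securin that holds separase inactive, fell from 135 ± 18 to 89.7 ± 22 CPM (log2 -0.59, SE 0.15, adjusted p = 0.00448), with 139 ± 6.5 and 141 ± 5.9 in the single agents. CDCA3, a target of the complex, fell from 109 ± 8.3 to 64.5 ± 12 CPM (log2 -0.76, SE 0.14, adjusted p = 0.000523), with 97.8 ± 11 and 108 ± 10. The other 3 genes act in the spindle checkpoint. MAD2L1 (chromosome 4, 120055608 to 120067074), the MAD2 protein that binds CDC20, measured 40.2, 37.4 and 40 CPM in DMSO, 52.5, 49.5 and 27.5 in TH10785, 28.3, 44.8 and 32.3 in PNKP1i, and 52.5, 55.5 and 75.1 in the combination. Its combination libraries were all above DMSO (log2 0.64, SE 0.21, adjusted p = 0.0235), and replicate 1 of TH10785 matched the lowest of them. The MAD2L1 rise was 0.16 (adjusted p = 0.37) with offsets and 0.47 (adjusted p = 0.125) without replicate 3 of the combination. BUB1, a checkpoint kinase, stood at 100 ± 9.5, 84.2 ± 23, 81.2 ± 4.7 and 85.7 ± 9.1 CPM in DMSO, TH10785, PNKP1i and the combination (log2 -0.23, SE 0.16, adjusted p = 0.268), and BUB1 passed the test as lower after offsets, at -0.54 (adjusted p = 0.001). BUB1B, the BUBR1 protein of the same checkpoint, stood at 48.9 ± 5, 41.7 ± 13, 42.4 ± 3.2 and 52.9 ± 5.8 CPM (log2 0.12, SE 0.18, adjusted p = 0.644).

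At the centromere, 3 of 5 genes fell and 0 rose (median log2 -0.45). BIRC5, survivin of the chromosomal passenger complex, measured 460, 467 and 383 CPM in DMSO, 419, 447 and 552 in TH10785, 503, 470 and 504 in PNKP1i, and 200, 314 and 242 in the combination. The combination libraries lay below all others (log2 -0.79, SE 0.15, adjusted p = 0.000897). CDCA8, borealin of the same complex, fell from 148 ± 5.7 to 84.5 ± 12 CPM (log2 -0.81, SE 0.12, adjusted p = 0.000101), with 137 ± 14 and 148 ± 9.2 in TH10785 and PNKP1i. CENPA, the histone H3 variant of centromeres, fell from 69.9 ± 4.3 to 51.1 ± 9.3 CPM (log2 -0.45, SE 0.13, adjusted p = 0.00934), with 68.9 ± 1.6 and 69.7 ± 3.5 in the single agents. The 2 long kinetochore proteins spread widely between replicates. CENPE, a kinetochore motor, measured 4.61, 5.56 and 4.17 CPM in DMSO and 7.36, 3.83 and 14.1 with both (log2 0.82, SE 0.47, adjusted p = 0.171), and 6.25, 2.95 and 0.943 with TH10785. CENPF, a kinetochore scaffold, measured 35.1, 43.4 and 43.9 CPM in DMSO and 45.1, 32.9 and 73.7 with both (log2 0.31, SE 0.35, adjusted p = 0.501), and 39, 28.4 and 9.15 with TH10785. In both genes replicate 3 held the highest value of the combination and the lowest of TH10785. PNKP1i libraries averaged 4.35 ± 1.6 CPM for CENPE and 29.9 ± 3.4 for CENPF.

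Of the 7 kinesin motors, 3 fell and 0 rose (median log2 0.04), where 19.7% and 21.3% of all tested genes did. KIF20A (chromosome 5, 138178719 to 138187715), the MKLP2 motor that carries the passenger complex to the midzone, measured 173, 156 and 156 CPM in DMSO, 132, 128 and 132 in TH10785, 155, 157 and 154 in PNKP1i, and 48.9, 89.6 and 77.4 in the combination. The TH10785 libraries were below those of DMSO and PNKP1i, and the combination libraries were lower still (log2 -1.17 against DMSO, SE 0.16, adjusted p = 5.04e-05). KIF2C, a microtubule depolymerase of centromeres, fell from 277 ± 31 to 199 ± 22 CPM (log2 -0.48, SE 0.12, adjusted p = 0.00518), with 280 ± 25 and 308 ± 3.2 in TH10785 and PNKP1i. KIF4A, a chromosome-arm motor, fell from 137 ± 4.6 to 97.5 ± 10 CPM (log2 -0.49, SE 0.11, adjusted p = 0.00329), with 112 ± 13 and 129 ± 3.9. The remaining motors were not called. KIF23, the MKLP1 motor of the midzone, stood at 97.2 ± 8.9, 79.4 ± 27, 73.4 ± 2.9 and 100 ± 11 CPM in DMSO, TH10785, PNKP1i and the combination, and KIF11, the Eg5 motor that separates spindle poles, at 29.6 ± 2.7, 22.8 ± 11, 22.4 ± 2.5 and 33.9 ± 7.5. KIF14, a motor of cytokinesis, stood at 7.19 ± 0.4, 4.89 ± 3.1, 5.09 ± 0.77 and 11.9 ± 4.6 CPM in the same order (log2 0.73 against DMSO, SE 0.36, adjusted p = 0.12). KIF18A, which limits chromosome movement at metaphase, stood at 5.53 ± 0.42, 3.59 ± 1.8, 3.83 ± 1.1 and 7.82 ± 1.7 CPM (log2 0.50, SE 0.30, adjusted p = 0.195), with combination libraries above those of DMSO.

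Among the 6 other genes of the spindle and chromosomes, 1 fell and 0 rose (median log2 0.13), where 19.7% and 21.3% of all tested genes did. TPX2, which activates AURKA on the spindle, measured 433, 453 and 480 CPM in DMSO, 375, 388 and 354 in TH10785, 415, 400 and 419 in PNKP1i, and 245, 317 and 299 in the combination. The combination libraries were the lowest (log2 -0.66, SE 0.12, adjusted p = 0.000364). TOP2A, the topoisomerase that untangles chromosomes, stood at 158 ± 6.4, 115 ± 53, 112 ± 16 and 177 ± 52 CPM in DMSO, TH10785, PNKP1i and the combination (log2 0.17, SE 0.26, adjusted p = 0.643). DLGAP5, which bundles spindle fibres, stood at 55.5 ± 1.7, 46.2 ± 18, 42.4 ± 4.6 and 57.2 ± 13 CPM (log2 0.04, SE 0.22, adjusted p = 0.892), and passed the test as lower after offsets, at -0.55 (adjusted p = 0.00707). HMMR, a spindle pole protein, measured 10.1, 9.16 and 8.56 CPM in DMSO and 10.9, 11.3 and 17.8 with both (log2 0.53, SE 0.24, adjusted p = 0.086), groups that do not overlap, with 6.85 ± 2 in TH10785 and 6.23 ± 1.3 in PNKP1i. ASPM, which acts at spindle poles, measured 9.33, 10.2 and 6.9 CPM in DMSO and 12, 8.72 and 19.6 with both (log2 0.61, SE 0.34, adjusted p = 0.155), with 7.35 ± 4 and 6.43 ± 0.92 in the single agents. NUSAP1, a microtubule-bundling protein, stood at 10.1 ± 1.3, 9.1 ± 2.3, 8.55 ± 2.2 and 10.8 ± 2.7 CPM (log2 0.10, SE 0.24, adjusted p = 0.751).

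In cytokinesis 1 of 3 genes fell, where 19.7% of all tested genes did, and a role of 3 genes is too small to read as a share. RACGAP1, a subunit of centralspindlin, measured 182, 168 and 167 CPM in DMSO, 181, 175 and 164 in TH10785, 173, 177 and 176 in PNKP1i, and 100, 143 and 136 in the combination (log2 -0.45 against DMSO, SE 0.12, adjusted p = 0.00867). No combination library reached the lowest of the others. ECT2, the exchange factor for RHOA that centralspindlin recruits, stood at 19.9 ± 3.6, 16.3 ± 6.6, 15.1 ± 1.8 and 27 ± 7.2 CPM in DMSO, TH10785, PNKP1i and the combination (log2 0.43, SE 0.25, adjusted p = 0.184). PRC1, which cross-links the midzone, was among the lowest of the 41 genes, at 3.1 ± 0.29, 2.87 ± 0.28, 2.1 ± 0.37 and 2.5 ± 0.76 CPM (log2 -0.30, SE 0.25, adjusted p = 0.347), and its exons share 406 bases with the antisense gene PRC1-AS1. Exons of 14 of the 41 genes overlap exons on the other strand, among them FOXM1 (781 bases with ITFG2), PLK1 (595) and CDCA3 (549 with GNB3), and without a stated strand setting the reads of such pairs cannot be told apart. Per kilobase of its longest transcript, the most abundant of the 41 in DMSO was CDC20 (406 CPM per kb), followed by UBE2C (261), CCNB1 (185), FOXM1 (161) and BIRC5 (161), and the least abundant were CENPE (0.555), PRC1 (0.759) and ASPM (0.809). Close relatives or pseudogenes of AURKA, UBE2C, NEK2, CCNB2, BUB1, CDC20, DLGAP5, RACGAP1 and PTTG1 could share reads with them, which leaves those counts uncertain to that extent.

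**Figure D3:**
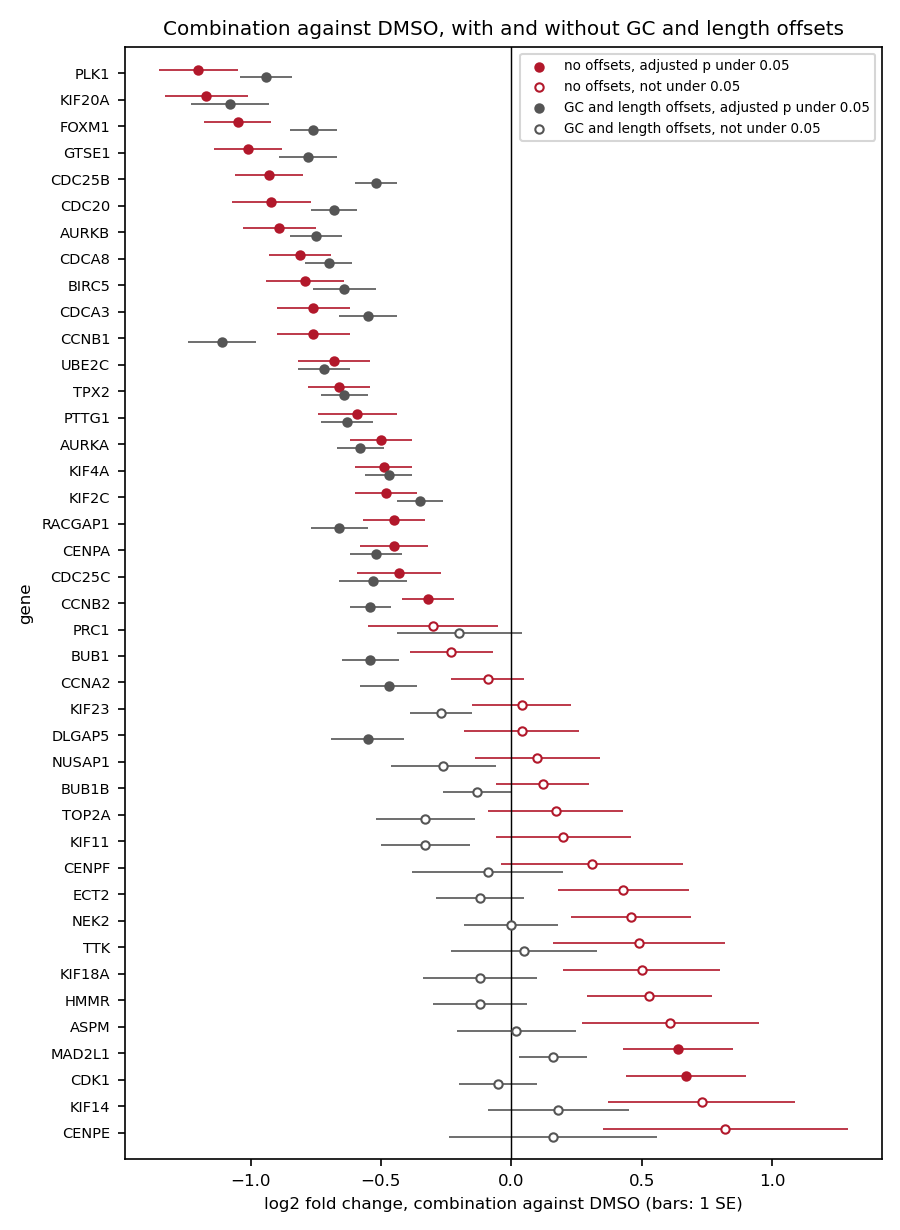
Log2 fold change of each gene in the combination against DMSO, with bars of 1 SE, as fitted (red) and with per-library GC and length offsets (grey). Filled points have an adjusted p under 0.05. With offsets the 21 falls are still filled, CDK1 and MAD2L1 lie at -0.05 and 0.16 with open points, and CCNB1 lies farthest to the left at -1.11.

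Which of the 41 genes fell and which did not followed their GC content closely. Across the 41 genes the log2 fold change of the combination against DMSO had a Pearson r of -0.90 and a Spearman rho of -0.93 with GC content, against -0.44 and -0.52 over 17282 tested genes. These points share the same libraries, and across the 41 genes the fold change also had an r of -0.77 with mean level and 0.54 with transcript length. The 20 genes of lower GC held both rises and 1 fall, CCNB1, with a median log2 fold change of 0.37. The 21 genes of higher GC held the other 20 falls, with a median of -0.68, and PRC1 was the 1 gene among them that was not called. Set beside tested genes in the same bin of 2.5% GC, 38 of the 41 lay below the bin's median and 27 below its lower quartile. The 3 at or above the median were CENPE, KIF14 and MAD2L1.

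**Figure D4:**
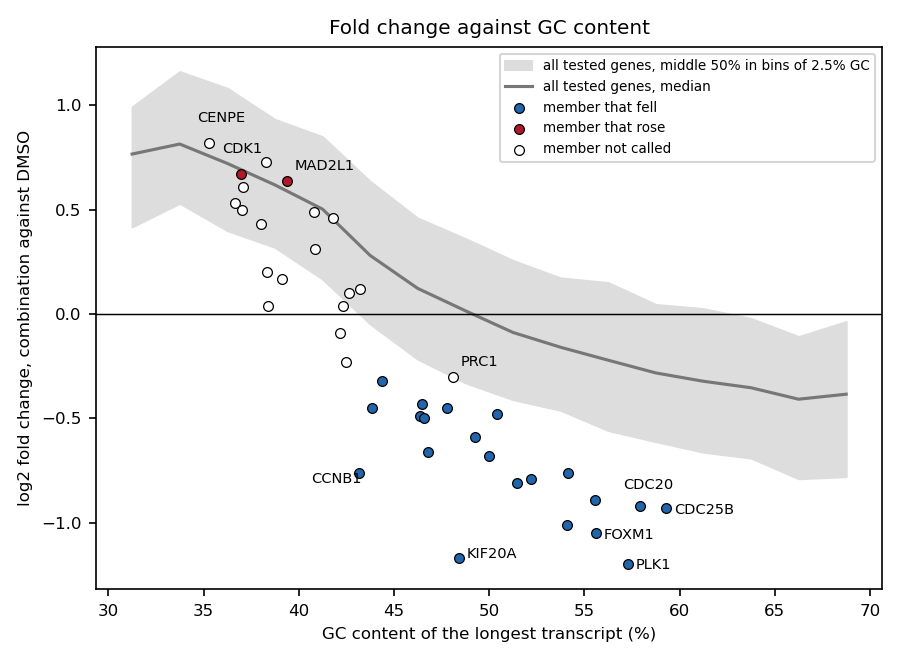
Log2 fold change of the combination against DMSO plotted against the GC content of the longest transcript, with 1 point per gene coloured by call, and the median and middle 50% of all tested genes in bins of 2.5% GC as a grey line and band. The points slope downward with GC as the line does, and 38 of the 41 lie below the median of their own bin.

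With the offsets, 24 of the 41 genes fell and 0 rose against DMSO, where 15.3% of all tested genes fell and 19.9% rose. The median log2 fold change was -0.52. Across the 41 genes the r with GC content was -0.69, against -0.02 over all tested genes, and the r with mean level was -0.77 and with transcript length 0.57. All 21 falls were still called, and BUB1, CCNA2 and DLGAP5 were added to them. CCNB1 had the largest fall on this scale (-1.11, SE 0.13, adjusted p = 1.7e-05), followed by KIF20A (-1.08) and PLK1 (-0.94). CDC25B, the gene of highest GC, moved from -0.93 to -0.52. Of the 18 genes not called before, KIF14, CENPE, TTK, ASPM and NEK2 had values from 0.00 to 0.18 with offsets, none of which passed the test. HMMR, KIF18A, ECT2, CENPF, BUB1B, NUSAP1, KIF23, KIF11 and TOP2A, which were above 0 as fitted, lay between -0.33 and -0.09 with offsets and did not pass either.

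Replicate 3 of TH10785 and replicate 3 of the combination departed from their partners in opposite directions in the genes of lower GC. The median of the 20 genes of lower GC, against the DMSO mean, was 0.04, -0.08 and -1.13 in the TH10785 libraries, -0.52, -0.25 and -0.30 with PNKP1i, and 0.11, 0.03 and 0.82 with both. In the 21 genes of higher GC it was -0.23, -0.17 and -0.05, then 0.01, -0.08 and 0.03, and then -0.94, -0.47 and -0.65. Without replicate 3 of the combination 19 genes fell and 0 rose against DMSO, and without replicate 3 of TH10785, which enters this comparison through the shared normalization and estimate of spread, 21 fell and 6 rose. The added rises were NEK2, KIF14, HMMR and ECT2. The shares of all tested genes called in fits without a library are not given here. Of the 21 falls, 18 were called under all 21 alternative settings, and CENPA, CCNB2 and CDC25C were not. Neither rise was called under all of them, and both were lost on leaving out any 1 of the DMSO libraries.

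**Figure D5:**
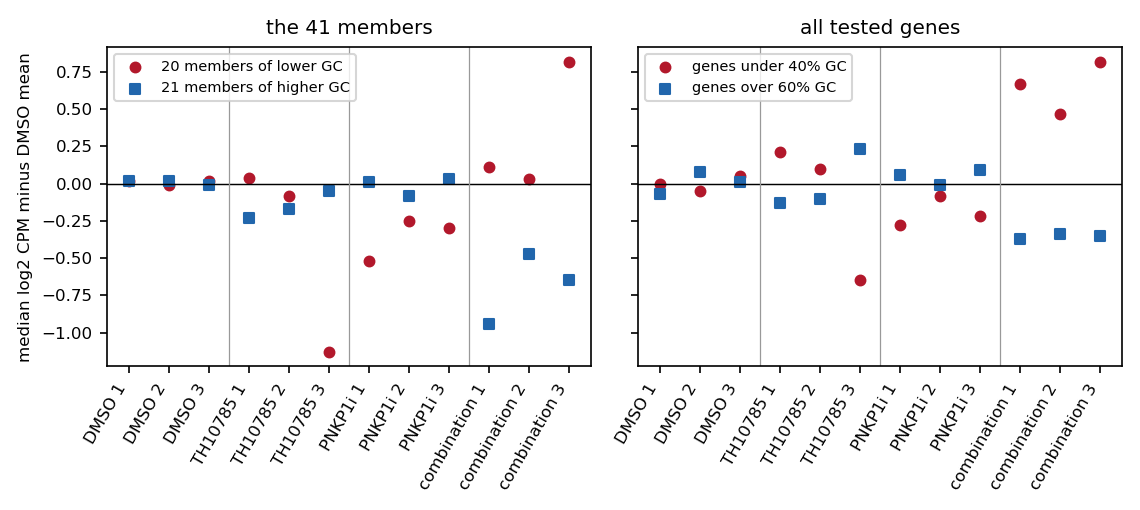
Median log2 CPM minus the DMSO mean in each of the 12 libraries, on the left for the 20 genes of lower GC (red circles) and the 21 of higher GC (blue squares) among the 41, and on the right for all tested genes under 40% GC (red circles) and over 60% GC (blue squares). Replicate 3 of TH10785 is at -1.13 for the lower-GC genes and replicate 3 of the combination at 0.82, and in the combination the higher-GC genes are low in all 3 libraries.

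Neither compound alone changed any of the 41 genes past the threshold. With TH10785, 0 rose and 0 fell, where 0.515% and 0.0463% of all tested genes did, and 3 genes had an unadjusted p under 0.05. DESeq2 and limma-voom also called 0. The 3 were CDC25B (log2 -0.34, SE 0.13, adjusted p = 0.231), TPX2 (-0.29, SE 0.12, adjusted p = 0.258) and KIF4A (-0.28, SE 0.11, adjusted p = 0.269). TH10785 libraries lay wholly below DMSO in 7 of the 41 genes and wholly above in 0, against 10% and 9.64% of all tested genes. The median of the 41 was -0.23, against -0.02 over all tested genes, and 34 of the 41 had a negative sign. Without replicate 3 of TH10785 the median was -0.06. PLK1 (-0.22), FOXM1 (-0.27) and KIF20A (-0.31) lay below 0, and PLK1 was at -0.39 and FOXM1 at -0.37 without that library, each short of the threshold. With offsets CDC25B alone passed in TH10785, at -0.33 (adjusted p = 0.041), where 0.515% of all tested genes fell.

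With PNKP1i, 0 rose and 0 fell, where 0.174% and 0.0231% of all tested genes did, and 4 genes had an unadjusted p under 0.05. DESeq2 and limma-voom called 0 as well. The 4 were HMMR (log2 -0.57, SE 0.25, adjusted p = 0.415), TTK (-0.77, SE 0.35), KIF23 (-0.40, SE 0.19) and PRC1 (-0.56, SE 0.25). PNKP1i libraries lay wholly below DMSO in 15 of the 41 genes and wholly above in 3, against 14.2% and 11.7% of all tested genes. The median of the 41 was -0.13, against -0.02 over all tested genes, and 31 of the 41 had a negative sign. By GC content the median was -0.40 in the 20 genes of lower GC and -0.01 in the others. A fit of only the DMSO and PNKP1i libraries called 7 falls, TTK (-0.76), HMMR (-0.55), TOP2A (-0.48), CENPF (-0.43), KIF11 (-0.39), KIF23 (-0.39) and DLGAP5 (-0.38), where 3.28% of all tested genes fell in the same fit. All 7 are of lower GC, and the median of all tested genes under 40% GC was -0.28, -0.08 and -0.22 in the PNKP1i libraries. With offsets, in the fit of all 12 libraries, TTK was at -0.64, HMMR at -0.47, TOP2A at -0.31 and DLGAP5 at -0.30. KIF23, CENPF and KIF11 were at -0.29, -0.23 and -0.22 there, and none of the 7 passed. The part of the GC trend in these falls was not tested.

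Set against TH10785 alone, the combination lowered 19 of the 41 genes and raised 10, where 19.7% and 22.7% of all tested genes fell and rose. Against PNKP1i alone it lowered 21 and raised 9, where 21.5% fell and 24.4% rose. These comparisons share the combination libraries with the one against DMSO, so their values are given side by side only. PLK1 was -0.98 against TH10785 (SE 0.15, adjusted p = 0.000164), -1.14 against PNKP1i (SE 0.15, adjusted p = 6.48e-05) and -1.20 against DMSO. CCNB1 was -0.81, -0.90 and -0.76 in the same order and KIF20A -0.86, -1.11 and -1.17. CDK1 rose against both single agents, by 0.85 against TH10785 (adjusted p = 0.00752) and with an adjusted p of 0.00235 against PNKP1i. Genes that rose against a single agent without passing against DMSO included TTK (1.13 and 1.26), KIF14 (1.29 and 1.22), HMMR (0.96 and 1.10) and KIF18A (1.13 and 1.03). With offsets 22 genes fell and 1 rose against TH10785, where 14.4% and 19.5% of all tested genes did, and the rise was NEK2 (0.50, adjusted p = 0.0449). Against PNKP1i 23 fell and 0 rose with offsets, where 13.9% and 19.8% of all tested genes did. Without replicate 3 of the combination, 3 genes rose against each single agent.

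The interaction asks whether the response to both compounds differs from the sum of the single responses on the log2 scale. It was negative in 16 of the 41 genes and positive in 11, where it was negative in 14.1% and positive in 16.5% of all tested genes. BIRC5 had the lowest value (-1.08, SE 0.22, adjusted p = 0.00561), with single responses of 0.12 to TH10785 and 0.17 to PNKP1i beside -0.79 to both. CDC20 followed at -1.02 (SE 0.22, adjusted p = 0.00623), with -0.02 and 0.12 beside -0.92, and CCNB1 at -0.95 (SE 0.19, adjusted p = 0.00561), with 0.05 and 0.14 beside -0.76. PLK1 was at -0.92 (SE 0.20, adjusted p = 0.00674). In KIF4A, TPX2 and CCNA2 it was -0.12, -0.23 and 0.08 and not called. The highest value was in TTK (1.90, SE 0.49, adjusted p = 0.0115), where single responses of -0.64 and -0.77 stood beside 0.49, and KIF14 (1.78, SE 0.53, adjusted p = 0.0202) and KIF18A (1.65, SE 0.44, adjusted p = 0.013) were next. All 11 positive values were in genes of lower GC, and 15 of the 16 negative ones in genes of higher GC. With offsets 11 were negative and 2 positive, where 7.93% and 9.98% of all tested genes were. Those 2 were TTK (1.30, adjusted p = 0.0412) and HMMR (0.77, adjusted p = 0.049), and CCNB1 was the lowest (-1.27, SE 0.19, adjusted p = 0.00157). Leaving out replicate 3 of PNKP1i reduced the negative calls from 16 to 10. Without replicate 3 of TH10785 there were 15 negative and 10 positive calls, and without replicate 3 of the combination 13 and 4.

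A further 156 genes of mitosis were taken from 7 lists, with CEP55 in 2 of them, and all were tested. Against DMSO the combination lowered 48 of them and raised 26, where 19.7% of all tested genes fell and 21.3% rose, and their median log2 fold change was 0.02. With offsets 59 fell and 8 rose, where 15.3% and 19.9% of all tested genes did. Their medians were -0.10 with TH10785 and -0.11 with PNKP1i. In the spindle and centrosome list 14 of 28 fell and 2 rose, and with offsets 16 fell and 0 rose. TUBB, a beta-tubulin, fell from 3510 ± 260 to 1570 ± 310 CPM (log2 -1.16, SE 0.17, adjusted p = 7.25e-05), KIFC1, a minus-end kinesin, by 0.96 and NUMA1, a spindle pole protein, by 0.76. NUMA1 was at -0.30 with offsets (adjusted p = 0.00881). CENPJ (0.89) and CEP192 (0.73), both of centrioles, rose as fitted and did not pass with offsets (0.55, adjusted p = 0.067, and 0.45, adjusted p = 0.103). In the cytokinesis list 8 of 17 fell and 1 rose, and with offsets 6 fell and 1 rose, with ARHGEF39 (-1.13), the myosin MYH9 (-0.81, and -0.37 with offsets) and citron kinase CIT (-0.70, and -0.45 with offsets) among the falls and KIFC3 (0.52, and 1.04 with offsets) the rise. Of 20 further genes of the G2/M switch 6 fell and 2 rose, and with offsets 9 fell and 1 rose. CCNF, cyclin F, fell from 255 ± 29 to 96.7 ± 7.6 CPM (log2 -1.40, SE 0.14, adjusted p = 3.01e-06) and PIMREG by 0.73, while GADD45A, a stress-induced inhibitor of CDK1, went up from 64 ± 6 CPM to 138 ± 22 (a log2 fold change of 1.11 with an SE of 0.13, adjusted p = 1.22e-05) and was at 1.16 with offsets. ARPP19, an inhibitor of the opposing phosphatase, rose by 0.63 as fitted and was at 0.06 (adjusted p = 0.704) with offsets.

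In the other 4 lists there were both rises and falls, where 19.7% of all tested genes fell and 21.3% rose. With offsets those shares were 15.3% and 19.9%. Of 20 condensin and cohesin genes 6 fell and 6 rose, and with offsets 7 fell and 1 rose. ESPL1, the separase that cuts cohesin, fell from 204 ± 11 to 98.5 ± 16 CPM (log2 -1.05, SE 0.13, adjusted p = 1.91e-05, and -0.66 with offsets), and the condensin subunits NCAPD2 and NCAPH fell by 0.96 and 0.65. The 6 that rose were the cohesin genes PDS5A (0.96), STAG2 (1.04), SMC3 (0.72), WAPL (0.55), STAG1 (0.72) and NIPBL (0.76), of which PDS5A alone passed with offsets (0.59, adjusted p = 0.00251). In the kinetochore list 5 of 35 fell, INCENP (-0.73), CENPO (-0.66), SPC24 (-0.89), SPC25 (-0.53) and CENPM (-0.52), and 6 rose, both shares below those over all tested genes. The 6 rises are not named under the naming rule given below, and the median log2 fold change of the list was 0.18. With offsets 9 fell and 2 rose, INCENP was at -0.31, CENPO at -0.38, SPC25 at -1.16 and CENPM at -0.24, and CENPM no longer passed (adjusted p = 0.0769). Of 17 genes of the anaphase-promoting complex 4 fell and 6 rose, with falls in ANAPC2 (-0.68), FZR1 (-0.74), UBE2S (-0.70) and ANAPC15 (-0.52) and a rise in ANAPC16 (0.55). The other rises are not named under the same rule, and the median of this list was 0.11. With offsets 5 fell and 2 rose, ANAPC2 was at -0.24, UBE2S at -0.46, and FZR1 at -0.18 did not pass (adjusted p = 0.101). Among 20 DREAM and MuvB regulators 5 fell and 3 rose, and with offsets 7 fell and 1 rose. MYBL2, which encodes B-MYB, fell from 1130 ± 100 to 530 ± 100 CPM (log2 -1.09, SE 0.17, adjusted p = 0.000172, and -0.70 with offsets) and E2F1 by 0.76 (-0.34 with offsets), while the pocket protein gene RBL1 (0.84), NFYB (0.77), an NF-Y subunit, and LIN9 (0.45), a MuvB subunit, rose and had values of 0.41, 0.12 and 0.05 with offsets, none past the threshold.

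CDKN1A, which encodes an inhibitor of cyclin-dependent kinases, averaged 286 ± 14 CPM in DMSO, 378 ± 72 in TH10785, 264 ± 26 in PNKP1i and 220 ± 7.8 in the combination, where it fell (log2 -0.38, SE 0.13, adjusted p = 0.029). With offsets the CDKN1A value was -0.09 (adjusted p = 0.37), and in TH10785 alone it was 0.31 (adjusted p = 0.041), against 0.40 (adjusted p = 0.182) without them. MKI67, the proliferation marker Ki-67, averaged 270 ± 21 CPM in DMSO, 152 ± 58 in TH10785, 165 ± 3.4 in PNKP1i and 175 ± 40 in the combination. MKI67 fell with both (log2 -0.62, SE 0.21, adjusted p = 0.0276) and did not pass in TH10785 (-0.83, adjusted p = 0.0976) or PNKP1i (-0.71, adjusted p = 0.27). Its mean was below that of DMSO in all 3 treated groups, and with offsets its combination value was -0.48 (adjusted p = 0.0939).

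The cell type was checked on markers. Of 8 mesenchymal markers, VIM, COL1A1, SPARC and FN1 were at 430 CPM or more in every library, while TWIST1 was at 0 in all 12 and COL1A2 did not exceed 0.538 CPM. Their summed level was 4610 to 5630 CPM in DMSO, 4650 to 5280 with TH10785, 5030 to 5120 with PNKP1i and 2560 to 3360 with both. The sum of 13 markers of epithelial, blood, endothelial, liver and neural cells was 8.46 to 12.8 CPM over all libraries, with CD3E and APOA2 among those at 0 in all 12. The mesenchymal sum moved with the group in which the mitotic genes were lowest, and its part in their differences was not tested.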

How the data were processed

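RNA of 12 U2OS libraries was sequenced as paired reads, per the labels' protocols. The raw counts of 58735 genes were deposited by the authors. The annotation and the strand setting of the counting are not given in the sources used here. HTSeq 0.6.1, HISAT2 2.0.5, DESeq2 1.30.1 and GRCh38 are listed without roles, per the submitters' processing notes. A second, normalized table was not used here. Identifiers matched GENCODE 29, whose longest basic transcript gave length and GC content. Counts were fitted in R 4.3.3 with edgeR 4.0.16 (filterByExpr, minimum count 10 and minimum total 15, TMM, robust quasi-likelihood F tests, two-sided, all 12 libraries). P-values were adjusted by Benjamini-Hochberg over the 17290 tested genes within each comparison, at 0.05. Each SE was derived from the test, as the absolute log2 fold change divided by the square root of the F statistic. The biological coefficient of variation was 15.4%, and no 2 libraries held identical counts. Alternatives were RLE and upper-quartile scaling, no filter, DESeq2 1.42.0, limma-voom (limma 3.58.1), only the groups compared, per-library spline offsets (5 degrees of freedom) for GC and length, the replicate block, and each library left out.

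All 41 genes are named. Of each further list the text names the 3 genes with the smallest p in the combination against DMSO and the called genes that go against most of their list, plus the regulators CDKN1A, MYBL2, E2F1 and MKI67. Some items that this rule covers are not reported here. Promoters were taken for the 3 largest falls and the rises, and the third of those falls, FOXM1, had no window. The genes, lists and alternatives were chosen with earlier results of these data known.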

Additional observations from a re-analysis of the deposited data

Results flagged for a closer look

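In 27 of the 41 genes the effect of 1 compound differed with the other compound present, by the interaction term of the edgeR fit at an adjusted p under 0.05. It was negative in 16 and positive in 11, where it was negative in 14.1% and positive in 16.5% of all tested genes. With GC and length offsets there were 13 calls, 11 negative and 2 positive (TTK and HMMR), where 7.93% and 9.98% of all tested genes were called. With offsets CDC25B was at -0.05, CDC20 at -0.48 and TOP2A at 0.38, of which CDC20 alone passed. Without offsets the negative values, on the log2 scale, were in BIRC5 (-1.08), CDC20 (-1.02), CCNB1 (-0.95), CDC25C (-0.94), PLK1 (-0.92), AURKB (-0.85), KIF20A (-0.80), PTTG1 (-0.70), CDCA8 (-0.69), GTSE1 (-0.68), KIF2C (-0.64), UBE2C (-0.58), CDCA3 (-0.58), FOXM1 (-0.57), CDC25B (-0.49) and RACGAP1 (-0.48). The 11 positive values were in KIF23 (0.74), TOP2A (1.12), NEK2 (1.13), ECT2 (1.13), CDK1 (1.18), ASPM (1.33), CENPF (1.43), HMMR (1.53), KIF18A (1.65), KIF14 (1.78) and TTK (1.90). Of the negative calls 8 held in all 20 alternative settings, and of the positive calls 0 did.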

How the results depend on the processing

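The counts of genes that fell were the steadier ones. In the combination they ran from 18 to 21 against DMSO, 17 to 20 against TH10785 and 20 to 21 against PNKP1i when 1 library was left out, and negative interactions from 10 to 18. Rises ran from 0 to 6, 3 to 15 and 3 to 15, and positive interactions from 4 to 16. Rises against DMSO came to 0 without any 1 of the DMSO libraries or replicate 3 of the combination, 4 without its replicate 2 and 6 without replicate 3 of TH10785. Against TH10785 they came to 5 without its replicate 3 and 3 without replicate 3 of the combination, and against PNKP1i to 15, 4 and 3 without replicate 3 of TH10785, replicate 1 of PNKP1i and replicate 3 of the combination. Positive interactions came to 7, 7 and 6 without DMSO replicates 1, 2 and 3, 4 and 7 without PNKP1i replicates 1 and 3, and 4 without replicate 3 of the combination, and negative ones to 10 without replicate 3 of PNKP1i. With GC and length offsets, rises came to 0 against DMSO, 1 against TH10785, 0 against PNKP1i and 2 in the interaction, and TH10785 against DMSO gave 1 fall. Fitting only the groups compared gave 4, 4 and 15 rises, and 7 falls with PNKP1i alone, and no filter on low counts gave 7 rises against DMSO. Apart from the fit with offsets and those 7 falls, shares over all tested genes are not given for the alternative settings. Changes in these counts are therefore not set apart from changes in calls over all genes. No pairing by replicate number was seen, which does not exclude a shared preparation. The deviations of 18 same-numbered pairs had an r of -0.25 to 0.13, and those of different-numbered pairs one of -0.26 to 0.30. Of the 12 libraries, 1 correlated best with its own number. With the replicate block, rises were 6 against TH10785 and 6 in the interaction. The replicate block with offsets gave 0 rises in the combination against DMSO, TH10785 and PNKP1i and 0 in the interaction. Among values called in at least 1 of the fits compared, offsets, and the block with offsets, turned the sign for CDK1, combination against DMSO (-0.05 and -0.06), DLGAP5, combination against DMSO (-0.55 and -0.55), BUB1, combination against TH10785 (-0.33 and -0.32), BUB1, combination against PNKP1i (-0.34 and -0.34), and CCNA2, combination against PNKP1i (-0.40 and -0.41). The cause was not tested. Depth limits the lowest genes most: CENPE, TTK, KIF14, KIF18A and PRC1 had as few as 17, 27, 28, 29 and 34 counts in a library.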
